A study of Mus musculus with 6 samples.

Results

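The genes described here are the channels that release calcium from the endoplasmic reticulum and the phospholipases C that make the messenger opening 1 class of them. They were chosen by symbol in the deposited gene tables: Itpr1, Itpr2 and Itpr3 for the IP3 receptors, Ryr1 and Ryr3 for the ryanodine receptors, and for the phospholipases Plcb1, Plcb3, Plcb4, Plcg1 and Plcg2. They make 10 of the 46603 genes counted, and all 10 passed the filter on low counts. The cells were taken from the enamel organs of mouse lower incisors, all on the C57BL/6 strain, and lysed without culture. The knockout of Stim1 and Stim2 (DKO) has 3 libraries, numbered 1, 3 and 4, and the wild type (WT) has 3, numbered 1, 2 and 3. Paired-end mRNA libraries were made with a kit that does not mark strand. The labels name no allele, Cre driver, age or sex, and do not say that replicates are separate animals, so a p-value here covers the spread between libraries, which may be technical. The enamel organ is the epithelium that holds the ameloblasts, the cells that secrete and then mature the enamel.

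A surface receptor that couples to a Gq-class G protein switches on a beta-class phospholipase C, and a receptor tyrosine kinase can switch on a gamma-class one. Either enzyme splits the membrane lipid PIP2 into diacylglycerol and IP3, and IP3 opens the IP3 receptors of the endoplasmic reticulum. Ryanodine receptors are the other release channels, best known from muscle and nerve. As the store empties, STIM1 and STIM2 sense the loss and open ORAI channels at the surface, so the genes measured here act upstream of these sensors. The comparison of DKO with WT asks whether the release side of this route differs in RNA level in the knockout. There the RNA of both sensors was lowered but not absent, as given below.

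The libraries held from 18609759 to 22829411 counts. Stim1 stood at 107, 143 and 125 counts per 1e6 (CPM, TMM-scaled) in DKO 1, 3 and 4, against 413, 492 and 362 CPM in WT 1, 2 and 3, and Stim2 at 105, 136 and 125 CPM in DKO against 229, 310 and 245 CPM in WT. Both were lower in every DKO library, and the edgeR quasi-likelihood test called both (adjusted p = 0.00553 for Stim1 and 0.018 for Stim2). The fold, DKO over WT, was 0.296 for Stim1 and 0.468 for Stim2, so RNA of both genes remained in DKO. Whether it came from cells that kept the genes or from parts of the genes left in place was not tested. By an exact permutation test, two-sided, each had p = 0.1, the lowest value possible with 3 against 3 libraries. The call of Stim2 was lost when DKO 1, DKO 3, DKO 4 or WT 3 was left out (adjusted p of 0.0574, 0.0635, 0.0987 and 0.0653), with a term for Xist above 100 CPM (0.0557), and by limma on log2(FPKM + 1) without a filter (0.126). Xist, the RNA of the inactive X chromosome, exceeded 100 CPM in 1 DKO library (replicate 1) and 2 WT libraries (replicates 1 and 2), and stayed at or under 1.22 CPM elsewhere. Going by Xist alone, the sexes were not split evenly between the genotypes, though the labels give no sex. Ameloblast and enamel organ markers were abundant: 11 of 11 were tested, and their sum ran from 144000 to 212000 CPM in DKO and from 106000 to 171000 CPM in WT. Summed markers of smooth muscle and pericytes (704 to 811 CPM in DKO, 476 to 658 in WT) and of endothelium (279 to 316 in DKO, 195 to 257 in WT) were higher in every DKO library. Those of oral keratinocytes (69.8 to 122 CPM in DKO, 259 to 456 in WT) were lower in every DKO library, a sum carried mostly by Krt6a, at 109, 60.6 and 85.6 CPM in DKO and 418, 230 and 336 CPM in WT. In a bulk sample, fewer cells of a type and less RNA per cell cannot be told apart.

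The RefSeq promoter table on GRCm38.p6 has an entry for 8 of the 10 genes, among them 2 of the 3 IP3 receptor genes, Itpr2 and Itpr3. The 250 bases before their start sites are shown because these receptors of 1 family, for the same messenger, stood at different levels in every library, as given below. Capitals mark the GC box GGGCGG on either strand, a sequence that Sp and Klf factors are known to bind.
Itpr2, chr6:146502224-146502473, minus strand: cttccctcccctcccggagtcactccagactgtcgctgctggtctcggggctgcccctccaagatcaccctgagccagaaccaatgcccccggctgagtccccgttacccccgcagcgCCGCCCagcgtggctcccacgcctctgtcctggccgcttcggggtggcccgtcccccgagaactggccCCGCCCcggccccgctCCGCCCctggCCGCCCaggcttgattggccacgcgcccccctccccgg
Itpr3, chr17:27057054-27057303, plus strand: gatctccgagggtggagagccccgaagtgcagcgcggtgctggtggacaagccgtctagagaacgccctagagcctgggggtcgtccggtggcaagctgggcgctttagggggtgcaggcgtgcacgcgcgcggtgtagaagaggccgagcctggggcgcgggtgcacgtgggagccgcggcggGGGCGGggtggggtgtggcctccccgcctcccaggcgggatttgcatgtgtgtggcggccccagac
The Itpr2 window holds 4 GC boxes and the Itpr3 window 1, and 32.7% of 32851 mouse promoter windows of this length hold at least 1. Both windows are rich in CpG, with 22 sites for Itpr2 and 25 for Itpr3, against a median of 6. Neither window holds TATAAA on either strand, which 12.4% of windows do, nor GGAAAA, a core that NFAT factors are known to bind, which 20.4% of windows hold. These are matches of letters, and no binding was measured.

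Levels of different genes are compared in the deposited FPKM, which divide fragments by transcript length and library size, and gene positions are those of GENCODE vM21 on GRCm38. Itpr3 (ENSMUSG00000042644, chr17:27057304-27122223, plus strand), the IP3 receptor common in secretory epithelia, was the highest, at 90.9, 110 and 102 FPKM in DKO 1, 3 and 4 and 121, 110 and 107 FPKM in WT 1, 2 and 3. Itpr1 (ENSMUSG00000030102, chr6:108213096-108551109, plus strand), the receptor best known from neurons, came next, at 47.2, 90.8 and 36.6 FPKM in DKO and 31.0, 64.9 and 62.8 FPKM in WT. Every library thus held more Itpr3 than Itpr1, by 1.22-fold to 3.89-fold. Itpr2 (ENSMUSG00000030287, chr6:146108299-146502223, minus strand), an IP3 receptor known from heart and exocrine glands, stood at 9.73, 16.4 and 17.6 FPKM in DKO and 19.9, 16.1 and 10.6 FPKM in WT. The groups overlap, and Itpr2 was lowest in DKO 1 and WT 3.

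Among the enzymes, Plcb3 (ENSMUSG00000024960, chr19:6952325-6976470, minus strand), a beta-class phospholipase widely expressed outside the nervous system, and Plcg1 (ENSMUSG00000016933, chr2:160731300-160775760, plus strand), the gamma-class enzyme found in most cells, stood highest. Plcb3 averaged 23.2 ± 0.89 FPKM in DKO and 23.4 ± 0.863 FPKM in WT, and Plcg1 21.7 ± 1.16 FPKM in DKO and 21.1 ± 4.94 FPKM in WT (SD, n = 3 each). Plcb3 was the higher of this pair in 5 of 6 libraries, by no more than 1.44-fold, and Plcg1 was above Itpr2 in 5 of 6, so the order of these neighbours does not exceed the spread of their FPKM. Plcb4 (ENSMUSG00000039943, chr2:135659011-136014593, plus strand), a beta-class enzyme known from the retina and cerebellum, averaged 3.17 ± 0.141 FPKM in DKO and 3.02 ± 0.312 FPKM in WT. Plcg2 (ENSMUSG00000034330, chr8:117498291-117635142, plus strand), the gamma-class enzyme of blood cells, averaged 1.27 ± 0.515 FPKM in DKO and 1.14 ± 0.277 FPKM in WT. Plcb1 (ENSMUSG00000051177, chr2:134786067-135475258, plus strand), abundant in the forebrain, averaged 0.551 ± 0.14 FPKM in DKO and 0.609 ± 0.133 FPKM in WT. The values of Plcg2 and Plcb1 overlap, and so do those of Plcb1 and Ryr3, the next below it.

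The ryanodine receptors lay at the bottom. Ryr3 (ENSMUSG00000057378, chr2:112631355-113217096, minus strand), expressed at low level in many tissues, averaged 0.26 ± 0.126 FPKM in DKO and 0.39 ± 0.377 FPKM in WT (SD, n = 3 each). Ryr1 (ENSMUSG00000030592, chr7:29003344-29125179, minus strand), the release channel of skeletal muscle, averaged 0.138 ± 0.0162 FPKM in DKO and 0.217 ± 0.17 FPKM in WT. These 2 cannot be put in order: Ryr3 was higher in 4 of 6 libraries by FPKM and in 1 of 6 by counts per kilobase of annotated exon. The genes Ryr2 and Plcb2, outside the set, were also scarce. Ryr2, the cardiac channel, had from 0 to 3 counts a library and did not pass the filter, and Plcb2, known from blood cells and taste cells, had from 18 to 29 counts.

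The order depends on how length is counted. With counts per 1e6 per kilobase of all annotated exons (GENCODE vM21), Itpr3 stayed first, at a mean of 101 in DKO and 117 in WT. Itpr1 dropped to 17.7 in DKO and 16.8 in WT, and was then above Plcb3 in 3 of 6 libraries only. Plcb4 and Plcg2 also changed places on that scale, with Plcb4 the higher in 2 of 6 libraries, and Plcb3 was above Plcg1 in 6 of 6. The step from Itpr2 down to Plcb4 held in 6 of 6 libraries on both scales, from 3.22-fold to 7.3-fold by FPKM.

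**Figure D1:**
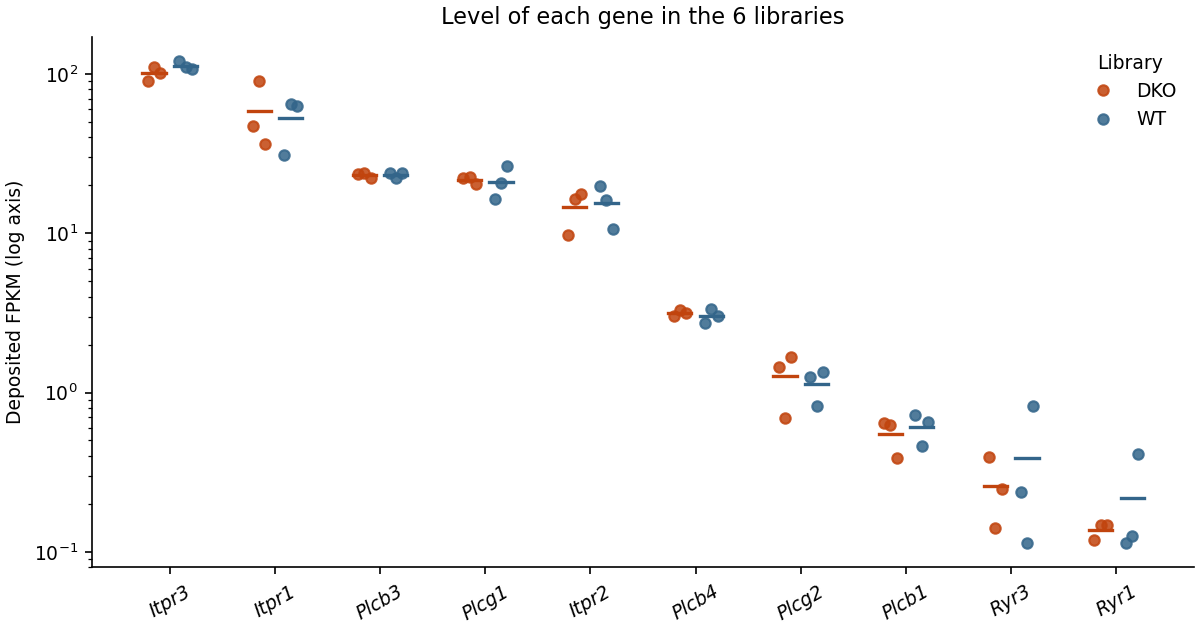
Deposited FPKM on a log axis for each of the 10 genes, with points for libraries (DKO left, WT right) and bars for group means. Itpr3 leads at 90.9 to 121 FPKM, Plcb3 is the tightest, and Ryr3 and Ryr1 lie below 1 FPKM in every library.

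Within the IP3 receptors the shares of each gene overlapped between the genotypes. Itpr3 made 61.5%, 50.7% and 65.2% of the summed IP3 receptor FPKM in DKO and 70.3%, 57.6% and 59.4% in WT. Itpr1 made 31.9%, 41.7% and 23.5% in DKO and 18.1%, 34.0% and 34.7% in WT. Itpr2 made the rest, from 6.58% to 11.3% in DKO and from 5.84% to 11.6% in WT. The summed FPKM of the 3 receptors was 174 ± 38.2 in DKO and 181 ± 9.66 in WT (SD, n = 3 each), and the groups overlapped. Among the enzymes Plcb3 and Plcg1 made nearly equal shares. Plcb3 made from 46.2% to 46.7% of the summed phospholipase FPKM in DKO and from 43.3% to 52.9% in WT, and Plcg1 from 42.7% to 44.2% in DKO and from 36.7% to 47.7% in WT.

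Of the 10 genes, 0 passed the edgeR test of DKO against WT, which called 1.04% of the 14721 genes tested. At an unadjusted p below 0.05 the count was again 0 of 10, against 18.0% of all tested genes, and the DESeq2 Wald test also called 0 of 10, against 5.53%. The libraries of the 2 genotypes overlapped for all 10 genes. They did not overlap for 23.3% of tested genes. Of the 10, 5 had a log2 fold change (DKO over WT) above 0, and the median was -0.01, as over all tested genes. The width of the interval of the log2 fold change differed widely from gene to gene.

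On the log2 scale the narrowest intervals were those of 3 phospholipases. Plcb3 stood at 104, 111 and 99.7 CPM in DKO and 107, 103 and 110 CPM in WT. These 6 values lie within 1.11-fold of each other, and the 95% interval of the fold, DKO over WT, ran from 0.881 to 1.09 (log2 fold change -0.03, SE 0.07, edgeR adjusted p = 0.874). Plcb4 stood at 10.8, 11.3 and 9.74 CPM in DKO and 9.46, 9.74 and 9.28 CPM in WT. The DKO values reach higher than those of WT, though DKO 4 and WT 2 are alike to 3 digits and the groups overlap, and the interval of the fold ran from 0.928 to 1.35 (edgeR adjusted p = 0.516). Plcg1 stood at 91.4, 99.4 and 88.9 CPM in DKO and 72.8, 89.7 and 101 CPM in WT. The WT libraries enclose the DKO ones, and the interval ran from 0.876 to 1.29 (edgeR adjusted p = 0.756).

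The scarcer phospholipases had wider intervals. Plcb1 stood at 3.71, 4.18 and 2.73 CPM in DKO and 4.07, 2.62 and 3.88 CPM in WT. Both groups cover the same range, and the interval of the fold ran from 0.672 to 1.5 (edgeR adjusted p = 0.993). Plcg2 stood at 6.42, 3.36 and 7.54 CPM in DKO and 5.51, 3.78 and 5.93 CPM in WT. It was low in 1 library of each genotype, DKO 3 and WT 2, and the interval ran from 0.687 to 1.88 (edgeR adjusted p = 0.806).

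Of the IP3 receptors, Itpr3 had the narrowest interval. It stood at 814, 1050 and 932 CPM in DKO and 1090, 1020 and 990 CPM in WT. The 2 lowest values are both from DKO libraries, but DKO 3 lies among the WT values, and the interval of the fold ran from 0.737 to 1.1 (log2 fold change -0.15, SE 0.12, edgeR adjusted p = 0.561). Itpr2 stood at 90.3, 137 and 132 CPM in DKO and 157, 129 and 93.8 CPM in WT. Each group holds 1 low library, and the interval ran from 0.673 to 1.33 (edgeR adjusted p = 0.883). Itpr1 stood at 263, 522 and 218 CPM in DKO and 173, 394 and 345 CPM in WT. The genotypes interleave, and the interval ran from 0.59 to 2.05 (log2 fold change 0.14, SE 0.39, edgeR adjusted p = 0.888). The value of Itpr1 rests on single libraries: it was -0.34 without DKO 3 and -0.14 without WT 1.

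The ryanodine receptors rest on few counts. Ryr1 had 37, 49 and 43 counts in DKO and 44, 44 and 154 counts in WT. Only WT 3 stands apart. The log2 fold change was -0.69 with it (SE 0.49, adjusted p = 0.511 by edgeR) and 0.15 without it. Ryr3 had 24, 28 and 43 counts in DKO and 38, 36 and 53 counts in WT, with an interval of the fold from 0.521 to 1.45 (edgeR adjusted p = 0.785). The lower bound of the deposited FPKM interval of Ryr3 was 0 in every library but WT 3. The annotated exons of Ryr3 share 916 bases with those of Aven on the opposite strand. Aven, a regulator of cell death, had 166, 132 and 195 counts in DKO and 268, 193 and 211 in WT, and the library kit does not mark strand, so how reads in the shared stretch were assigned is uncertain. Plcg1 likewise shares 379 bases with Zhx3, a zinc finger and homeobox gene.

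**Figure D2:**
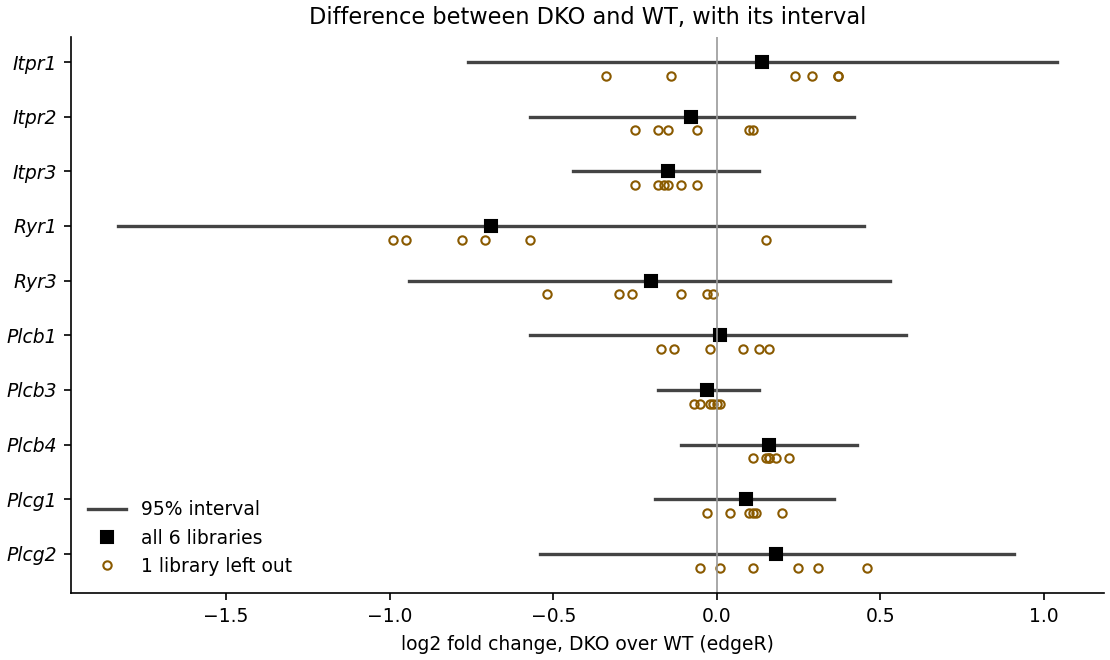
Log2 fold change of each gene, DKO over WT, from edgeR (square) with its 95% interval (line), and the value with each library left out in turn (open circles). All 10 intervals include 0, the narrowest is that of Plcb3, and the widest that of Ryr1, whose circle at 0.15 is the fit without WT 3.

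Itpr1 varied between libraries of the same genotype more than nearly any gene of like abundance. The coefficient of variation of its CPM was 49.0% in DKO and 38.1% in WT, and 99.3% of the 977 tested genes with a mean count within 2-fold of its own had a smaller spread within groups. Itpr2 also varied, at 21.4% in DKO and 24.9% in WT, with 96.8% of 2917 like genes below it. Plcb4 and Plcb3 were at the other end, with 8.84% of 3392 and 16.5% of 3289 like genes below them. The other 6 lay between 49.8% and 93.3%.

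The pattern of Itpr1 over the libraries was close to that of an enamel matrix gene. Among tested genes with a mean of at least 50 counts, the 3 nearest by the root mean square difference of centred log2 CPM over 6 libraries were AI504432, a long non-coding RNA gene on chromosome 3 (0.04), Enam, which encodes the enamel matrix protein enamelin (0.11), and Galnt12, which encodes an enzyme that starts O-linked glycans (0.12). Enam stood at 5820, 9410 and 4520 CPM in DKO and 3220, 8130 and 6230 CPM in WT. Its highest library in each genotype, DKO 3 and WT 2, was also the highest for Itpr1, and its lowest, DKO 4 and WT 1, the lowest. Itpr1 ranged 3.01-fold over the 6 libraries, while Itpr1 counts per count of Enam ranged 1.22-fold, from 0.0453 to 0.0554. For AI504432 the ratio of Itpr1 counts to its counts ran from 10.8 to 10.9 in DKO and from 11.4 to 11.6 in WT. These genes were picked for their likeness over the same libraries, so the ratios describe that choice. The share of counts from Amelx and Ambn together, the most abundant matrix genes, was 11.2%, 15.8% and 11.2% in DKO and 6.86%, 12.8% and 10.7% in WT, again highest in DKO 3 and WT 2. The part of the matrix-secreting cells in the Itpr1 values was not tested.

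**Figure D3:**
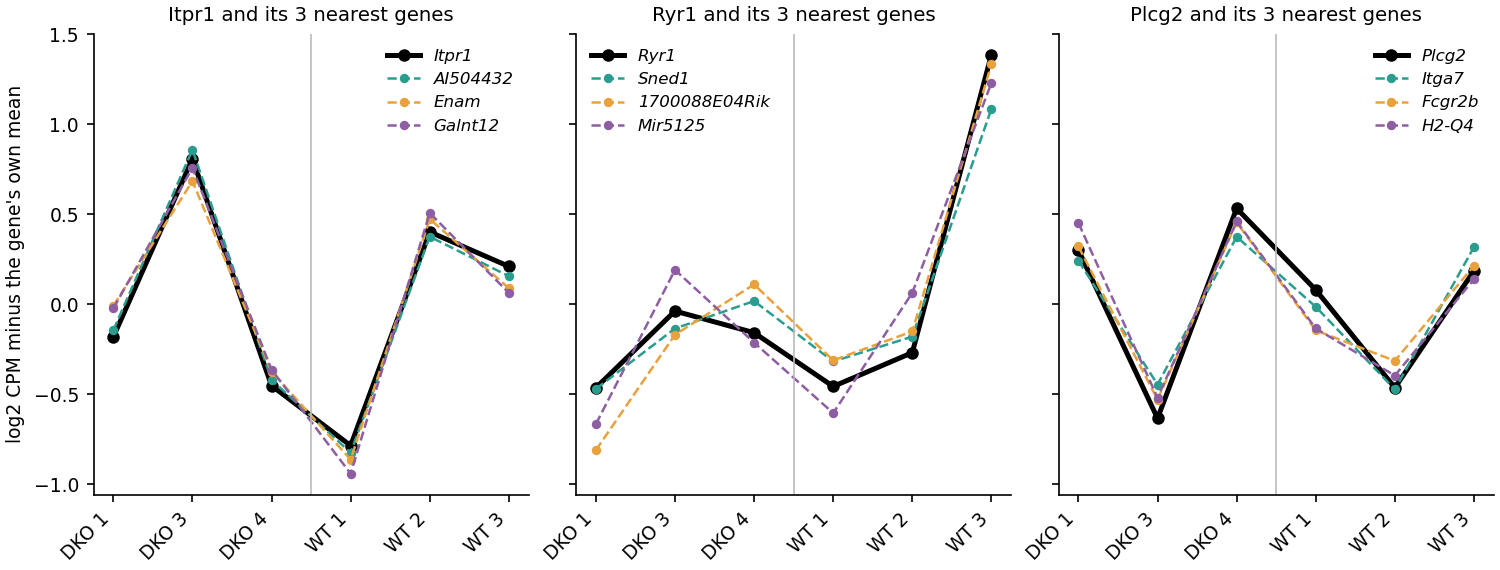
Log2 CPM minus each gene's own mean over the 6 libraries, for Itpr1, Ryr1 and Plcg2 (black) and the 3 tested genes nearest to each (dashed), with DKO libraries left of the grey line and WT right. Lines only join points of 1 gene. Itpr1 and Enam peak in DKO 3 and WT 2, Ryr1 in WT 3, and Plcg2 is lowest in DKO 3 and WT 2.

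Ryr1 was high in the 1 library with the highest summed muscle markers. The summed skeletal muscle markers, 15 genes, stood at 128, 112 and 57.7 CPM in DKO and 69.2, 91.2 and 288 CPM in WT. Outside WT 3 the largest member was Myh4, at 38.3, 56.6 and 38.7 CPM in DKO and 30.7, 38.8 and 43.7 CPM in WT, highest in DKO 3. Myh2 was lowest in WT 3 (0.218 CPM), and Myh8 was highest in WT 1 (1.48 CPM). The other tested markers of the list were highest in WT 3. Tnnc2 adds nothing to that sum, with 0 counts in every library. Its deposited FPKM were not 0, at 20.8, 13.5 and 3.21 in DKO and 8.22, 12.1 and 50.8 in WT. In WT 3, Ryr1 stood at 6.71 CPM, against 1.86 to 2.5 CPM in DKO and 1.87 and 2.13 CPM in WT 1 and WT 2. Outside WT 3 the order differed, since DKO 1 had the next highest muscle sum and the lowest Ryr1. The 3 genes nearest to Ryr1 were Sned1, 1700088E04Rik and the microRNA record Mir5125 (differences of 0.16, 0.20 and 0.20), none of them on the muscle list, and each was highest in WT 3. The part of muscle RNA in the Ryr1 values was not tested.

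Within each genotype, Plcg2 was lowest in the library where summed leukocyte markers were lowest. The genes nearest to it over the 6 libraries were Itga7, which encodes an integrin subunit known from muscle, Fcgr2b, an Fc receptor of immune cells, and the class I histocompatibility gene H2-Q4, at 0.12 each. Summed leukocyte markers stood at 125, 112 and 151 CPM in DKO and 93.4, 83.6 and 121 CPM in WT, over 13 genes of which 11 were tested and none was at 0 throughout. These libraries of lowest values were DKO 3 and WT 2, though the leukocyte sum of DKO 3 was above that of WT 1, where Plcg2 was higher. The sums of mesenchyme, endothelium and oral keratinocyte markers were also lowest in DKO 3 and WT 2 within each genotype. Mesenchyme stood at 13500, 10700 and 11600 CPM in DKO and 10400, 6890 and 11500 CPM in WT. The ameloblast sum was highest in DKO 3 and WT 2, while those of skeletal muscle and nerve were lowest in other libraries. The part of leukocytes or of any other cells in the Plcg2 values was not tested.

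**Figure D4:**
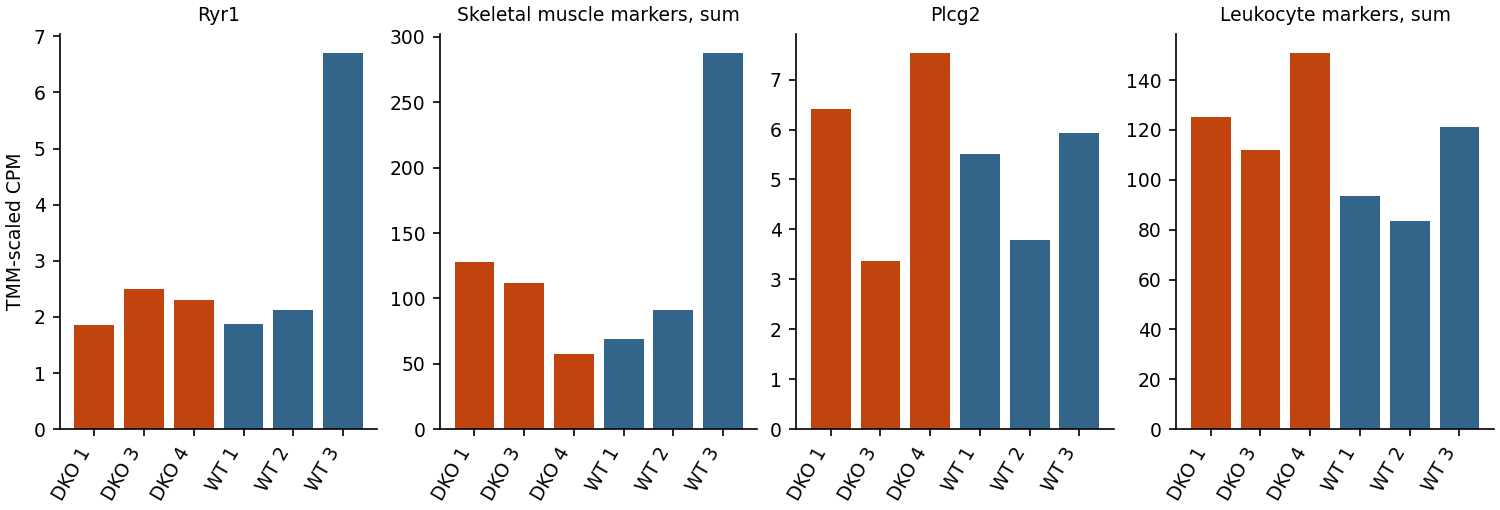
TMM-scaled CPM in each library of Ryr1, of the summed skeletal muscle markers, of Plcg2 and of the summed leukocyte markers (bars from 0, DKO left, WT right). WT 3 stands out for Ryr1, at 6.71 CPM, and for muscle, at 288 CPM, and Plcg2 and the leukocyte sum share their lowest library within each genotype.

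The other genes of the route were followed through 9 lists, from surface receptors to channel partners, of which 121 genes were tested. The edgeR test called 2 of them higher and 1 lower in DKO, against 0.734% and 0.306% of all tested genes. The median log2 fold change was 0.04, against -0.01 over all tested genes. At an unadjusted p below 0.05 there were 26 of 121, against 18.0% of all tested genes. The counts by list below are to be read beside that share, and the lists are small.

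At the surface, 1 of 16 receptors that couple to Gq rose, and 3 of 16 had an unadjusted p below 0.05. Hrh1, the histamine H1 receptor, stood at 2.26, 3.31 and 3.58 CPM in DKO and 0.467, 0.533 and 0.567 CPM in WT. All DKO libraries lie above all WT libraries, though on few reads: 45, 65 and 67 counts in DKO and 11, 11 and 13 in WT (log2 fold change 2.53, SE 0.29, edgeR adjusted p = 0.0135). Leaving out DKO 3, DKO 4 or WT 3 ended the call (adjusted p of 0.0671, 0.0783 and 0.0643). F2r, a thrombin receptor and the most abundant of the list, averaged 327 ± 72.6 CPM in DKO and 265 ± 61.7 CPM in WT (SD, n = 3 each) and did not pass (edgeR adjusted p = 0.506).

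Of 12 receptor tyrosine kinases, a class that can switch on gamma-class phospholipases, 1 fell. At an unadjusted p below 0.05 there were 5 of 12, against 18.0% of all tested genes. All 5 were lower in DKO, with log2 fold changes from -0.73 to -0.21, while 6 of the 12 had a value above 0. Erbb3, a member of the EGF receptor family that signals in pairs with its relatives, stood at 28.1, 26.9 and 31.6 CPM in DKO and 53.2, 42.3 and 48.6 CPM in WT. The groups do not overlap (log2 fold change -0.73, SE 0.11, edgeR adjusted p = 0.029). Leaving out DKO 1, DKO 3, DKO 4, WT 1 or WT 3 ended the call (lowest adjusted p 0.0641, highest 0.116), as did a term for Xist above 100 CPM (0.0739). Fgfr1, the most abundant of the list, averaged 792 ± 54.9 CPM in DKO and 712 ± 66.5 CPM in WT (SD, n = 3 each; edgeR adjusted p = 0.521).

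Between receptor and enzyme, 0 of 10 Gq-class G proteins and regulators passed. At an unadjusted p below 0.05, 6 of 10 did so, against 18.0% of all tested genes. Rgs5, a regulator that shortens G protein signals and also one of the 8 pericyte markers summed above, was the most abundant, at 309 ± 9.29 CPM in DKO and 232 ± 49.2 CPM in WT (SD, n = 3 each; edgeR adjusted p = 0.211). That marker sum was higher in every DKO library, but Rgs5 is its largest member, so the sum is not independent of Rgs5. Rgs5 stood at 318, 309 and 300 CPM in DKO and 278, 180 and 238 CPM in WT. Of the other markers, Acta2, Myh11, Tagln, Cnn1 and Cspg4 averaged higher in DKO, and Notch3 and Des lower. The part of these cells in the Rgs5 values was not tested. Of 8 other phospholipases C, 0 passed and 1 did so at an unadjusted p. Plcd3, a delta-class enzyme and the most abundant of them, averaged 29.1 ± 0.434 CPM in DKO and 32.2 ± 5.79 CPM in WT (edgeR adjusted p = 0.616).

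Of 16 genes that supply phosphoinositides, 1 rose, and 3 had an unadjusted p below 0.05. Pi4k2b, a type II kinase that makes the precursor of PIP2, stood at 53.0, 62.6 and 59.5 CPM in DKO and 36.8, 41.8 and 40.9 CPM in WT. The groups do not overlap (log2 fold change 0.55, SE 0.09, edgeR adjusted p = 0.0415). It missed the threshold when DKO 3, DKO 4, WT 1 or WT 3 was dropped (lowest adjusted p 0.0843, highest 0.158) and when the Xist term was added (0.0894). Cds2, which feeds the resynthesis of phosphatidylinositol, averaged 127 ± 6.68 CPM in DKO and 130 ± 6.27 CPM in WT (SD, n = 3 each; edgeR adjusted p = 0.83).

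Downstream, 0 of 12 genes that remove IP3 passed, and the most abundant, the IP3 kinase gene Itpkb, averaged 92.9 ± 3.41 CPM in DKO and 99.6 ± 13.7 CPM in WT (edgeR adjusted p = 0.655). In the diacylglycerol arm 0 of 17 passed, led by the diacylglycerol kinase gene Dgkz at 108 ± 1.57 CPM in DKO and 119 ± 12.7 CPM in WT (edgeR adjusted p = 0.432). At an unadjusted p below 0.05 these lists had 2 and 1 genes. Of 15 partners of the IP3 receptors 0 passed, also at an unadjusted p, with log2 fold changes from -0.29 to 0.30. Ahcyl2, a relative of the IP3 receptor inhibitor IRBIT, was the most abundant at 990 ± 21.1 CPM in DKO and 998 ± 140 CPM in WT (edgeR adjusted p = 0.972). Of 15 partners of the ryanodine receptors 0 passed and 5 did so at an unadjusted p, against 18.0% of all tested genes. Fkbp1a, a small protein that binds and steadies these channels, was the most abundant, at 153, 156 and 167 CPM in DKO and 131, 130 and 128 CPM in WT. Its groups do not overlap, but it missed the threshold (log2 fold change 0.29, SE 0.07, edgeR adjusted p = 0.0912). The DESeq2 Wald test, which called 5.53% of the genes it tested, did call it (adjusted p = 0.0136).

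**Figure D5:**
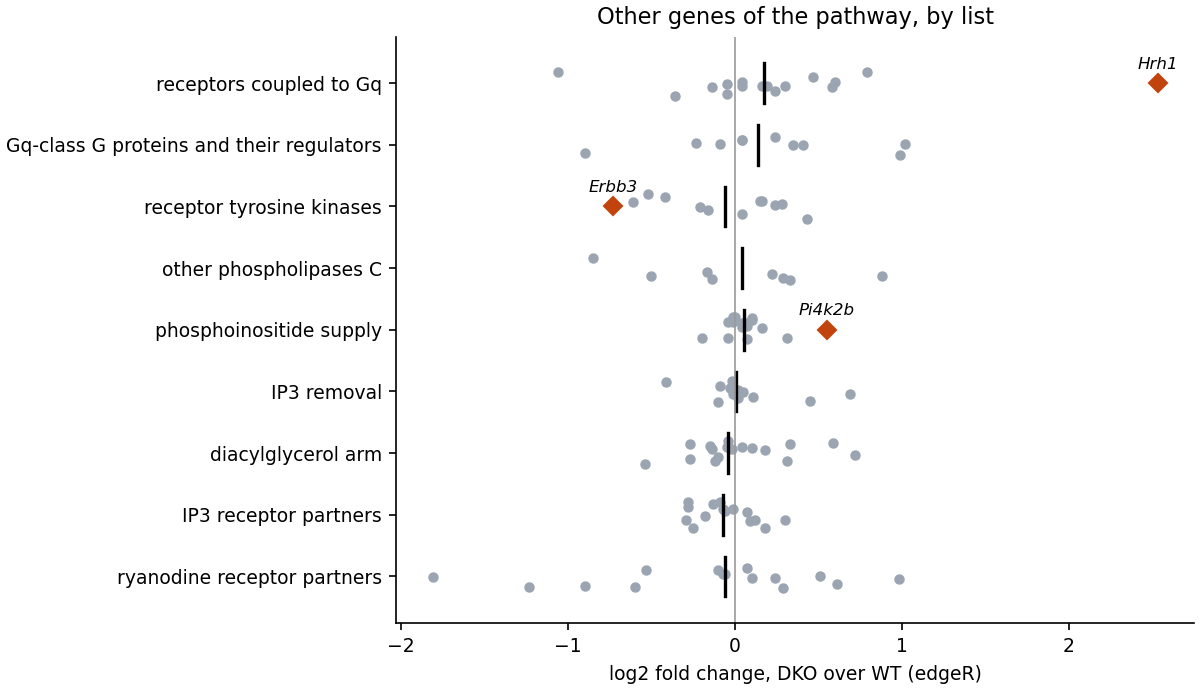
Log2 fold change, DKO over WT, of the 121 tested genes in the 9 lists of the route (grey points), with list medians as black bars and genes called by edgeR as diamonds. Hrh1 at 2.53, Erbb3 at -0.73 and Pi4k2b at 0.55 are the 3 called genes, and the points of the IP3 receptor partners stay between -0.29 and 0.30.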

How the data were processed

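Gene counts and FPKM were deposited as 1 table of each kind per library. The deposited counts are unscaled whole numbers for each Ensembl gene. FPKM were made by the authors with Cufflinks, going by the column names of the deposited tables. The submitters' processing notes list Trimmomatic 0.32, HTSeq, Cufflinks 2.2 and the build GRCm38, with no role given. Aligner, annotation release and strand setting: not given in the sources used here. Symbols from the FPKM tables named 46406 of 46603 counted genes. Positions and exon lengths are from GENCODE vM21, and promoters from RefSeq.

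The main test, DKO against WT, was the quasi-likelihood F test in edgeR 4.0.16 (R 4.3.3) on all counts, scaled by TMM, filtered with filterByExpr, and fitted with no covariate. Genes are called at a Benjamini-Hochberg adjusted p below 0.05 over 14721 genes, and the two-sided 95% intervals use the t distribution of that fit. An SE is the log2 fold change over the square root of F. The tests were first run on simulated data. Alternatives were other scalings and count filters, a replicate block, a term for Xist, each library left out, DESeq2 1.42.0, and limma 3.58.1 on log2(FPKM + 1) or log2(FPKM + 0.1), for genes at 1 FPKM or more in at least 3 libraries or for all.

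The named genes are the members, Stim1, Stim2, the called and the most abundant tested gene of each list, and the 3 nearest genes of members that range at least 2-fold. The members and lists were chosen with earlier results of these data known. Of 136 listed pathway genes, 132 had a symbol in the tables. Marker lists are given as summed CPM. Replicates were distinct libraries: the lowest chi-square of a pair, divided by its degrees of freedom, was 13.4. Counting error is small beside the spread of 3 libraries a group, except for genes of few counts (Ryr1, Ryr3, Plcb1 and Hrh1) and for Plcb4, whose libraries differ by about as much as counting alone gives or less.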

Additional observations from a re-analysis of the deposited data

How the results depend on the processing

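Of the 10 genes, 0 passed under any alternative fit, with the lowest adjusted p at 0.0964, that of Itpr1 with the replicate number as a block (log2 fold change 0.60). That fit compares the genotypes only within the replicate numbers that both groups hold, so DKO 4 and WT 2 do not inform its fold changes. Some signs turned without a call, and not only those of values near 0. In the main fit the log2 fold change was 0.01 for Plcb1, 0.18 for Plcg2, 0.14 for Itpr1 and -0.69 for Ryr1. Plcb1 was -0.06 with total counts, -0.01 with the replicate block, -0.01 with a term for Xist above 100 CPM and -0.05 by limma on log2(FPKM + 1) without a filter. Plcg2 was -0.28 with the replicate block and Itpr1 -0.0021 with the Xist term. With each library left out in turn, log2 fold changes ran from -0.34 to 0.37 for Itpr1, from -0.25 to 0.11 for Itpr2, from -0.17 to 0.16 for Plcb1, from -0.07 to 0.01 for Plcb3, from -0.03 to 0.20 for Plcg1, from -0.05 to 0.46 for Plcg2 and from -0.99 to 0.15 for Ryr1. Itpr3, Ryr3 and Plcb4 kept their sign in every fit that tested them. The causes of these turns were not tested. The limma fits with a filter left out Ryr1, Ryr3 and Plcb1, and the filter at a mean of 50 counts left out Ryr3.

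The count of all called genes was 153, and 554 without a low-count filter, 328 with the replicate block, 71 with the Xist term, 826 by DESeq2, 77 by limma on log2(FPKM + 1), 77 on log2(FPKM + 0.1), 11 on log2(FPKM + 1) without a filter, and from 21 to 335 with 1 library left out. The count of pathway genes was 3, and 6 without a filter, 1 with the Xist term, 9 by DESeq2, 0, 0 and 0 by the limma fits, and from 0 to 5 with 1 library left out. It was 2 with the replicate block, which ended the call of Pi4k2b (adjusted p = 0.0514). The groups share replicate numbers 1 and 3 only, so the block compares the genotypes in DKO 1, DKO 3, WT 1 and WT 3 alone. The correlation of deviations was 0.188 for number 1 and 0.00552 for number 3, so the numbers were not taken as pairs. Between libraries of different numbers it was 0.202 for DKO 4 with WT 3 and 0.182 for DKO 3 with WT 2, and ran from -0.199 to 0.0107 for the rest. The pairs at 0.188, 0.182 and 0.202 match each DKO library to a different WT library, in their listed order. No label pairs them in this way, and no block by that order was fitted, so the p-values leave it out. What these libraries share was not tested.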

Other observations

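Several regulators of G protein signalling, which shorten the signal between a receptor and phospholipase C, are given here as values, with no call by the edgeR test. They were picked after their values were seen. Rgs2, a regulator with a preference for Gq, stood at 129, 156 and 154 CPM in DKO and 335, 268 and 216 CPM in WT (log2 fold change -0.90, SE 0.16, edgeR adjusted p = 0.0525). Every DKO library lay below every WT library. It was called by DESeq2 (adjusted p = 1.01e-05) and by edgeR with upper-quartile scaling (0.0499), total counts (0.0337) or no low-count filter (0.00425), and its highest adjusted p over the alternatives was 0.184. Rgs3, Rgs4 and Rgs16 lay the other way, at 50.4, 3.35 and 5.49 CPM in DKO and 39.5, 1.67 and 2.72 CPM in WT on average (edgeR adjusted p = 0.255, 0.192 and 0.156). For all 3 every DKO library lay above every WT library. Of these 3, the DESeq2 Wald test called Rgs16 only (adjusted p = 0.0421). Groups did not overlap, in either direction, for 23.3% of tested genes.

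Among the ryanodine receptor partners, also named after their values were seen, 3 genes known from muscle had groups that do not overlap in CPM. Hrc and Jph1 were lower and Cacna1s higher in DKO, and none passed. Of the 15 tested partners 5 had groups that do not overlap, against 23.3% of all tested genes. Those of Casq1, Jph2, Stac3 and Jsrp1, also known from muscle, overlapped. Hrc, a calcium-binding protein of the muscle store, had 7, 6 and 6 counts in DKO and 19, 20 and 39 in WT. Jph1, a junctophilin that holds the store against the surface membrane, had 35, 22 and 47 counts in DKO and 84, 61 and 81 in WT. Cacna1s, the voltage sensor that opens Ryr1 in skeletal muscle, had 72, 57 and 80 counts in DKO and 58, 28 and 37 in WT. The edgeR adjusted p was 0.0944 for Hrc, 0.188 for Jph1 and 0.145 for Cacna1s. In the deposited FPKM the groups of Jph1 and Cacna1s overlapped. Cacna1s stood at 0.637, 0.49 and 0.785 FPKM in DKO and 0.623, 0.667 and 0.542 FPKM in WT.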
